A study of Arabidopsis thaliana with 22 samples.

Results

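The chloroplast genome encodes a small set of photosynthetic proteins, and their transcripts were followed here through polysomal, non-polysomal and total RNA of *Arabidopsis* seedlings. Members were taken as the probe sets that the array's annotation maps to exactly 1 gene on the plastid genome, with a symbol beginning psa, psb, pet, atp, ndh or rbc. 43 of 22746 probe sets met this rule. They comprise 15 transcripts of photosystem II (PSII), 5 of photosystem I (PSI), 6 of the cytochrome b6f complex, 6 of ATP synthase, 10 of the NDH complex and *rbcL*. RefSeq lists 44 distinct protein-coding plastid symbols with these prefixes. *ndhB*, whose probe set matches both copies of its gene in the inverted repeat, was left out.

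Wild-type (WT) plants of the Columbia ecotype and the *pab2 pab8* double mutant in the same background were raised side by side on agar plates with 1% sucrose, in continuous light at 22°C, and harvested at an age of 10 to 12 days. The mutant carries the T-DNA alleles SALK_026293 of *PAB2* and SALK_022160 of *PAB8*, genes for cytosolic poly(A) binding proteins, is slightly dwarfed and keeps the related *PAB4*. Aerial parts gave polysomal (PL) and non-polysomal (NP, free and monosomal) RNA from a sucrose gradient in 4 biological replicates per genotype, grown at different times, and total RNA in 3 replicates per genotype. Each of the 22 samples was read on an ATH1 array of its own, and values are log2 signals normalized by Robust Multi-array Average (RMA). Translation state (TL) is the log2 signal in PL minus that in NP, taken within a genotype and replicate, so that a TL below 0 means a stronger signal in the non-polysomal RNA, relative to the arrays as a whole. Transcript level (TC) is the log2 signal in total RNA.

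Photosystem II splits water, the cytochrome b6f complex passes electrons on to photosystem I, and ATP synthase uses the proton gradient that results. The NDH complex takes part in cyclic electron flow around photosystem I, and Rubisco fixes carbon dioxide. Each of these complexes also holds subunits encoded in the nucleus and made on cytosolic ribosomes. Plastid mRNAs are transcribed largely as polycistronic units, are processed, and are translated by bacterial-type ribosomes inside the organelle. Poly(A) tails in plastids are associated with RNA decay, and the arrays are biased towards polyadenylated RNA, so that the signals need not represent the whole pool of a plastid mRNA.

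The mutant samples were checked by their targeted genes and by tissue markers. The *PAB2* signal in total RNA lay between 10.55 and 11.01 in WT and between 4.95 and 5.07 in the mutant (log2 change -5.74, FDR = 6.50e-08 from limma), and the *PAB8* signal between 9.89 and 10.34 in WT and between 5.88 and 6.69 in the mutant (log2 change -3.73, FDR = 0.000136). Of 51 nuclear genes listed for subunits of the same complexes, 9 were named by the array's annotation. 7 of these 9, among them *PSAE1*, *PSAN*, *PSBY*, *LHCB4.1*, *LHCB4.2* and *ATPC1*, were at 12.67 or more on every total RNA array, and the root hair marker *EXPA7* lay below the median of every array. This was 1 of 11 cell type markers that could be matched, so leaf mesophyll and seed markers were not checked. The median of all probe sets was 6.12 to 6.23 on total RNA arrays and 4.68 to 4.99 on PL and NP arrays, the lowest being the NP array of mutant replicate 2. Signals were therefore compared between genotypes only within one kind of array.

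Among the plastid transcripts themselves the total RNA samples of replicate 1 stood apart. The median over the 43 transcripts was 8.90, 10.14 and 10.43 in WT replicates 1, 2 and 3 and 10.95, 9.51 and 10.43 in the mutant. WT replicate 1 thus held the lowest of the 6 medians and mutant replicate 1 the highest. 43 of 43 transcripts were lower in WT replicate 1 than in WT replicate 2, and 42 of 43 were higher in mutant replicate 1 than in mutant replicate 2. Results from total RNA are given with and without this replicate.

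In WT seedlings most of the plastid photosynthesis transcripts gave a stronger signal in non-polysomal than in polysomal RNA. By limma, 33 of 43 had a TL below 0 at a false discovery rate (FDR) below 0.05, against 26.2% of all probe sets, and 4 had a TL above 0, against 24.2% of all probe sets. 34 transcripts were below 0 in all 4 WT replicates and 4 above 0 in all 4. The median TL over the 43 transcripts was -0.94, -0.99, -0.97 and -0.93 in WT replicates 1 to 4, while the median over all probe sets lay between -0.07 and -0.06. The 6 that passed in neither direction were *psbB*, *psbC*, *psbD*, *psbK*, *psaA* and *psaB*. Of the 43 transcripts, *psbN* had the lowest mean TL in WT and *atpB* the highest, as the plot of TL by transcript shows.

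**Figure D1:**
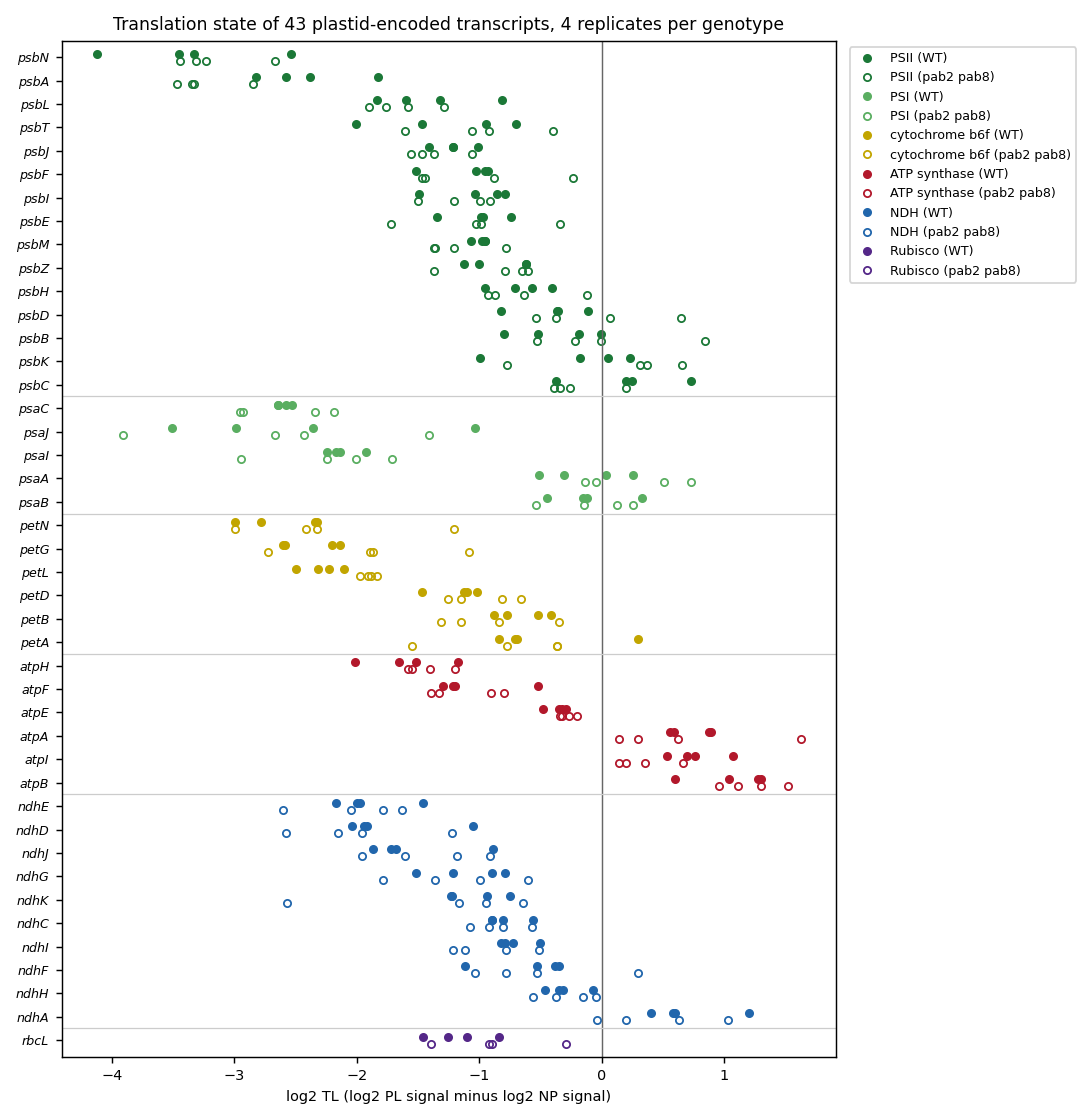
Translation state (log2 PL minus log2 NP, horizontal axis) of the 43 transcripts, ordered within each complex by their WT mean, with filled points for the 4 WT replicates and open points for the 4 *pab2 pab8* replicates. The small subunits of PSI and the cytochrome b6f complex lie to the left of -1, *atpA*, *atpI* and *atpB* to the right of 0 in all 8 values, and the values of *psbA* are lower in the mutant than in WT.

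PSII transcripts covered a wide range of TL. 11 of 15 were lower than 0 at the FDR and 0 were higher, with 12 at an unadjusted p under 0.05 (limma). The median TL over the 15 was -1.01, -0.99, -0.96 and -0.93 in WT replicates 1 to 4. *psbN*, which encodes a small protein needed for PSII assembly, had TL values of -2.54, -3.33, -4.12 and -3.45 in WT. All 4 values were below -2.5 (mean log2 TL -3.36, standard error 0.19, FDR = 2.97e-09 from limma). Its PL signal of 5.96, 5.11, 5.22 and 4.74 lay close to the medians of those arrays, 4.89 to 4.99, so the size of this difference is limited by the dim PL signal.

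*psbA*, which encodes the reaction centre protein of PSII that turns over fastest in the light, had a WT NP signal of 13.59, 13.98, 13.87 and 13.45 and a WT PL signal of 11.76, 11.15, 11.29 and 11.07. The fractions did not overlap, and TL was -1.83, -2.82, -2.58 and -2.38 in replicates 1 to 4. This was a mean of -2.40 (standard error 0.15, FDR = 5.63e-09), with an NP signal 5.29 times the PL signal. The NP signal of *psbA* lay within 1 log2 unit of the brightest probe set on each NP array, which limits what its TL can show.

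Other core protein transcripts had a TL nearer to 0. *psbC*, for a chlorophyll-binding core antenna protein, had TL values of 0.73, 0.25, -0.38 and 0.20 (mean 0.20, FDR = 0.291), so that 3 of 4 replicates were above 0. *psbD*, the partner of the *psbA* product in the reaction centre, had a mean TL of -0.41 (FDR = 0.0511) and the second core antenna transcript, *psbB*, of -0.38 (FDR = 0.0939). The WT signals of *psbD* were dim, at 5.34 to 5.97 in NP and 4.98 to 5.58 in PL. The medians of those arrays were 4.91 to 4.98 and 4.89 to 4.99, which limits what the TL of *psbD* can show. The low molecular weight subunit transcripts *psbI*, *psbJ*, *psbL*, *psbM* and *psbT* and both transcripts of cytochrome b559, *psbE* and *psbF*, had means between -1.39 and -0.99, all past the FDR. The WT PL signal of *psbT*, 4.27 to 4.98, was below the median of each of those arrays, which limits the size of its TL. The WT NP signal of *psbM*, 13.97 to 14.17, was near the brightest of those arrays, 14.16 to 14.19, which limits what its TL can show. *psbK*, another small subunit, was close to 0 in 3 replicates, with -0.99, 0.23, -0.18 and 0.05.

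PSI transcripts formed a low and a high group by gene. *psaC*, for the iron-sulfur protein on the stromal side of PSI, had TL values of -2.64, -2.53, -2.58 and -2.65, which lay within 0.12 of each other (mean -2.60, standard error 0.14, FDR = 1.84e-09 from limma). The small membrane subunits *psaI* and *psaJ* had means of -2.12 and -2.47. The values of *psaJ* spread from -3.51 to -1.04, the highest being WT replicate 4. *psaA* and *psaB*, for the large reaction centre proteins, had means of -0.13 and -0.10 and did not pass the test (FDR = 0.497 and 0.592). The PL and NP signals of *psaA*, 4.80 to 5.64 in WT, lay within 1 log2 unit of the medians of those arrays, 4.89 to 4.99. For *psaB* TL was -0.15, 0.33, -0.12 and -0.44, on both sides of 0.

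All 6 transcripts of the cytochrome b6f complex had a TL below 0 at the FDR. The lowest were those of the small subunits *petN*, *petG* and *petL*, with means of -2.61, -2.38 and -2.29. TL of *petN* was -2.34, -2.79, -3.0 and -2.32 (standard error of the mean 0.21, FDR = 5.41e-08). Its WT PL signal, 4.93 to 5.46, lay near the medians of those arrays, 4.89 to 4.99, which limits the size of its TL. The PL signals of *petG* and *petD* were below the array median on every PL array, which limits the size of their TL. *petD* and *petB*, for subunit IV and cytochrome b6, were at -1.18 and -0.65. *petA*, for cytochrome f, had the highest mean of the complex, -0.49, with values of 0.30, -0.69, -0.71 and -0.84 (FDR = 0.0486 from limma). Its replicate 1 alone was above 0. Without that replicate the mean was -0.75 (FDR = 0.00380), and without replicates 2, 3 and 4 the call was lost (FDR = 0.140, 0.191 and 0.141).

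ATP synthase was the complex with the highest median TL in each of the 4 WT replicates, at 0.04, 0.20, 0.12 and 0.28. 3 of its 6 transcripts were higher than 0 at the FDR and 3 lower. *atpB* and *atpA*, for the beta and alpha subunits of the catalytic head, had TL values of 0.602, 1.297, 1.278 and 1.038 and of 0.55, 0.87, 0.59 and 0.89. All of these were above 0. The mean of *atpB* was 1.05 (standard error 0.14, FDR = 1.02e-05 from limma), or a PL signal 2.08 times the NP signal. *atpI*, for the membrane subunit that carries protons to the rotor ring, had a mean of 0.76 (FDR = 0.000117), although its NP signal of 3.87 to 4.69 in WT was below the median of every NP array. *atpH*, for the rotor ring itself, was at the low end with -1.52, -1.65, -2.02 and -1.17 (mean -1.59, standard error 0.13, FDR = 1.17e-07). Its WT PL signal, 5.33 to 5.73, lay near the medians of those arrays, 4.89 to 4.99, which limits the size of its TL. *atpF* and *atpE*, for a stalk subunit and the epsilon subunit, had means of -1.06 and -0.36.

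Of the 10 NDH transcripts 9 had a TL below 0 at the FDR and 1 above. *ndhE*, a membrane subunit, had values of -1.46, -1.98, -2.0 and -2.17 (mean -1.90, standard error 0.15, FDR = 7.34e-08), and *ndhD*, another membrane subunit, a mean of -1.74. The exception was *ndhA*, at 0.40, 1.21, 0.60 and 0.58 (mean 0.70, standard error 0.17, FDR = 0.00245). *ndhA* was above 0 and *ndhE* below 0 in each WT replicate. The means of *ndhC*, *ndhF*, *ndhG*, *ndhH*, *ndhI*, *ndhJ* and *ndhK* lay between -1.54 and -0.30, and the signals of *ndhF* and *ndhH* were below the array median on all PL and NP arrays. That of *ndhG* was below the array median on every PL array. The WT PL signal of *ndhD*, 5.24 to 5.61, lay near the medians of those arrays, 4.89 to 4.99, which limits the size of its TL. *rbcL*, for the large subunit of Rubisco, had TL values of -1.10, -0.84, -1.26 and -1.46 (mean -1.17, standard error 0.15, FDR = 1.26e-05).

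The order of the complexes was partly stable over the WT replicates. By the median TL over their transcripts PSI was the lowest in replicates 1, 2 and 3 and the cytochrome b6f complex in replicate 4, where PSI was at -1.04. PSI medians were -1.93, -2.14 and -2.24 in replicates 1 to 3. Those of the cytochrome b6f complex were -1.63, -1.78, -1.66 and -1.61, and those of NDH -0.85, -1.06, -1.01 and -0.74. PSII and NDH overlapped in these values and exchanged places between replicates.

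TL tended to be lower for short genes than for long ones. The 12 transcripts of genes under 150 bases, all small membrane subunits or *psbN*, had a median WT TL of -1.76 (range -3.36 to -0.99), and all 12 were below 0 at the FDR. The ends of this range are *psbN*, dim in PL, and *psbM*, near the brightest in NP, so the signals limit it. The 15 between 150 and 1000 bases had a median of -0.84, with 13 lower and 1 higher, and the 16 over 1000 bases a median of -0.39, with 8 lower and 3 higher. Across the 43 genes log2 gene length and mean WT TL had a Pearson correlation of 0.60 and a Spearman correlation of 0.61. Without the 4 genes whose span holds an intron these were 0.59 and 0.60. This is a description across genes that share arrays and, in part, primary transcripts. *psbA* (1062 bases) and *ndhD* (1503 bases, dim in PL) had a low TL in spite of their length. The 26 other plastid-encoded transcripts encode ribosomal proteins, RNA polymerase subunits and a few enzymes and assembly factors. Across them the correlations with gene length were -0.15 and -0.13. For these 26 the whole gene span was used, and genes with an intron were not left out. The sets were thus not treated alike, and whether the length relation differs between them was not tested.

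**Figure D2:**
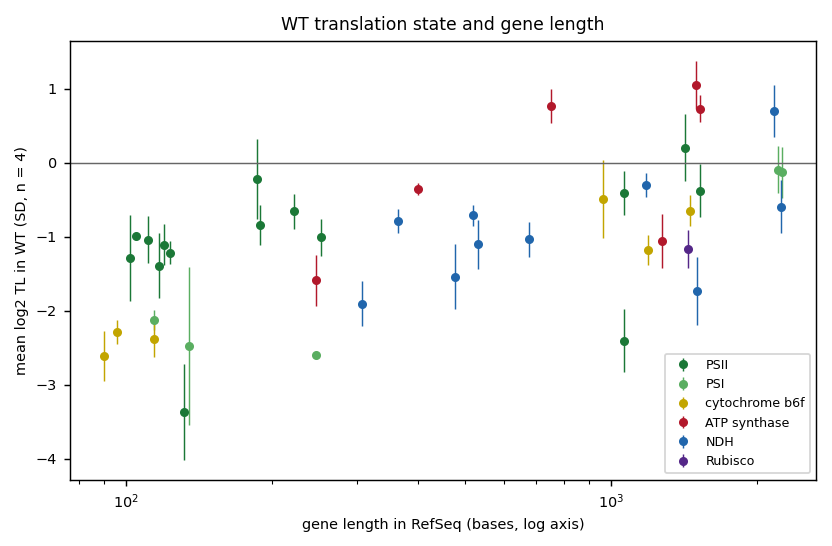
Mean WT translation state (log2 PL minus log2 NP, vertical axis) of the 43 transcripts against gene length in bases on a log axis, coloured by complex, with bars for the SD over 4 replicates. All transcripts of genes under 150 bases lie at or below -0.99, and longer genes spread from -2.60 to 1.05.

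Transcripts of one operon did not share one TL. The widest range was found in the unit of *ndhA*, *ndhD*, *ndhE*, *ndhG*, *ndhH*, *ndhI* and *psaC*, where mean WT TL ran over 3.29 log2 units from *psaC* at -2.60 to *ndhA* at 0.70. In the unit of *atpI*, *atpH*, *atpF* and *atpA* the range was 2.35, from *atpH*, dim in PL, to the dim *atpI*, with *atpA* at 0.73. *atpB* and *atpE*, which are transcribed together, differed by 1.41. The WT signals of *atpE*, 13.91 to 13.98 in NP and 13.44 to 13.64 in PL, were near the brightest of those arrays, 14.16 to 14.19 in NP and 14.31 to 14.53 in PL, which limits what the TL of *atpE* can show. By contrast the means of *psbE*, *psbF*, *psbL* and *psbJ* ranged over 0.38. No such comparison was read from *petG* and *petL* or from *psaA* and *psaB*, since *petG* in PL and *psaA* in both fractions were dim. The probe sets read parts of transcripts, and how processed and unprocessed RNAs contributed was not tested.

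The other organelle transcripts were mostly below 0 as well. Of the 26 other plastid-encoded transcripts 19 were lower than 0 and 2 higher at the FDR in WT, with a median TL of -1.02 against -1.03 for the photosynthesis transcripts. Of 18 mitochondrion-encoded transcripts 14 were lower and 0 higher, with 15 at an unadjusted p under 0.05 (median -1.16). These were dim probe sets, with WT medians of 4.28 in NP and 3.31 in PL, below the medians of those arrays. Of the 9 nuclear transcripts for subunits of the same complexes 7 were higher and 0 lower, with a median of 0.78 (limma, 7 at an unadjusted p under 0.05). Differences between these lists were not tested. For PSI, the lowest plastid transcript, *psaC* at -2.60, stood against the higher measured nuclear one, *PSAN*, with TL values of 1.09, 1.09, 0.95 and 0.80. The plastid *psaB* at -0.10 and the nuclear *PSAE1* at 0.78 lay closer together. The nuclear *PSBW* and *NDHL*, at 0.08 and -0.15, were not called. For ATP synthase *atpB* and the nuclear *ATPC1*, which encodes the gamma subunit, were both above 0, with 1.17, 0.73, 1.0 and 0.65 for *ATPC1*.

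The mutant showed nearly the same pattern of TL over the transcripts. By limma 32 of 43 had a TL below 0, against 16.3% of all probe sets, and 4 above 0, against 24.4%. All of the 32 and all of the 4 were called in the same direction in WT, and *ndhH* was called lower in WT alone (FDR = 0.0485 in WT and 0.0738 in the mutant). Whether it differed between genotypes is answered by the test of the TL change, which it did not pass. The number called above 0 rested on single replicates, with 1 without replicate 2 and 2 without replicate 3. Median TL over the transcripts was -1.0, -0.65, -1.0 and -1.36 in mutant replicates 1 to 4, which spread more widely than in WT. Replicate 2, the highest, is the one whose NP array had the lowest median, and the median TL of all probe sets was 0.15 there. The part of that array in the value was not tested.

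No transcript of the set passed the test for a changed TL in *pab2 pab8*. 0 of 43 were lower and 0 higher by limma, against 0.0044% and 0.0264% of all probe sets. 3 of 43 had an unadjusted p under 0.05, as did 1966 of all 22746 probe sets. The median change was -0.01, with 20 transcripts above 0 and 23 below. Without replicate 1 the counts were again 0 and 0, against 0.0% and 0.0352%, with 1 at an unadjusted p under 0.05 and a median change of 0.06. Per replicate pair the median difference, mutant minus WT, was -0.13, 0.35, 0.06 and -0.36, so that its sign changed between pairs. With the replicate block 0 were lower and 0 higher, against 0.0% and 0.0264%. Then 6 of 43 had an unadjusted p under 0.05, as did 2127 of all 22746 probe sets.

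*psbA* had the smallest p of these. Its PL signal was 11.76, 11.15, 11.29 and 11.07 in WT and 10.16, 11.15, 10.56 and 10.29 in the mutant, and its NP signal 13.59, 13.98, 13.87 and 13.45 and 13.63, 14.0, 13.90 and 13.62. The PL signal was lower in the mutant in pairs 1, 3 and 4 and nearly equal in pair 2, whereas NP differed by less than 0.17 in every pair. TL was therefore -3.47, -2.85, -3.35 and -3.33 in the mutant, below every WT value. The NP signals of *psbA* were near the brightest of those arrays in both genotypes, which limits what NP can show of a change. The TL change was -0.84 (standard error 0.21, FDR = 0.352 from limma), which did not pass the test. Without replicate 1 it was -0.58 (FDR = 0.728), and its FDR was 0.396 when replicate numbers entered the fit as a block. With an intensity trend in eBayes *psbA* was called lower (FDR = 0.0236), when 0.0659% of all probe sets were lower and 0.0659% higher. In total RNA *psbA* was at 11.15, 12.82 and 11.95 in WT and 13.79, 11.47 and 12.72 in the mutant, with overlap.

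**Figure D3:**
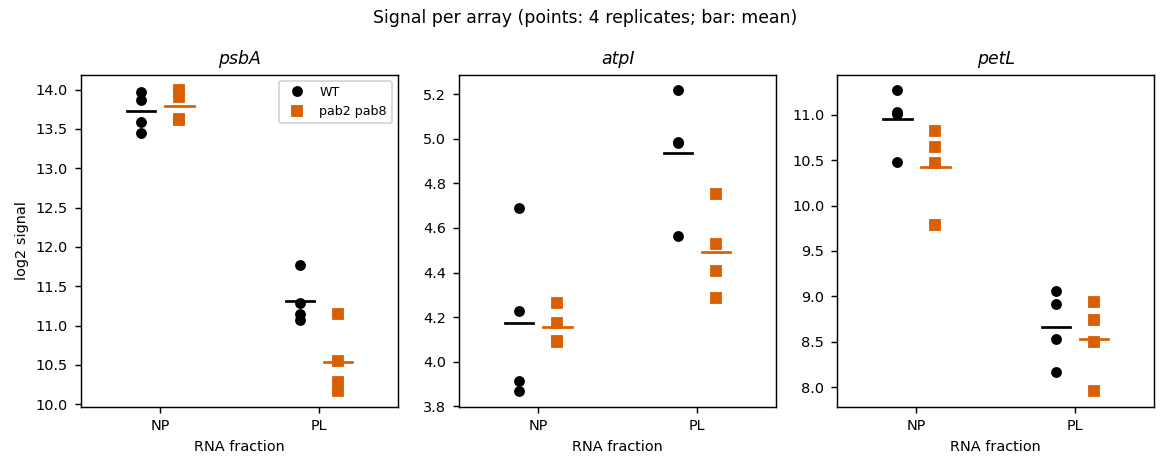
Log2 signal (vertical axis) of *psbA*, *atpI* and *petL* in non-polysomal (NP) and polysomal (PL) RNA, with 4 points per genotype (circles for WT, squares for *pab2 pab8*) and a bar for the mean. The groups of *psbA* lie at one level in NP, near the brightest signals of those arrays, and in PL the mutant mean is lower by 0.78. The axes differ between the panels and do not start at 0.

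*petL* and *atpI* followed, in opposite directions. TL of *petL* was -2.50, -2.10, -2.23 and -2.32 in WT and -1.98, -1.91, -1.89 and -1.83 in the mutant, without overlap and higher in the mutant in 4 of 4 pairs (change 0.38, standard error 0.16, FDR = 0.521 from limma). The NP signal of *petL* was lower in the mutant in 4 of 4 pairs, with a change of -0.52 (FDR = 0.623). TL of *atpI* was 0.70, 0.76, 0.53 and 1.07 in WT and 0.20, 0.36, 0.66 and 0.14 in the mutant, lower in 3 of 4 pairs and overlapping (change -0.42, FDR = 0.525). The signals of *atpI* lay near or below the array medians in both fractions. For *rbcL*, TL was higher in the mutant in 4 of 4 pairs, but overlapping (-0.92, -0.29, -0.90 and -1.40, change 0.29, FDR = 0.759). None of these passed the test.

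Polysomal signals of the set were lower in the mutant than in WT for most transcripts, but none passed the test without the replicate block. By limma 0 of 43 were lower and 0 higher, against 0.101% and 0.106% of all probe sets. 4 of 43 had an unadjusted p under 0.05, as did 1728 of all 22746 probe sets. 39 of 43 had an estimate below 0, and the median change was -0.22, against 0.00 over all probe sets. This came from pairs 1 and 4, where 38 and 40 of 43 were lower in the mutant, with median differences of -0.50 and -0.32. In pairs 2 and 3 20 and 23 were lower, with medians of 0.02 and -0.03. Without replicate 1 the median was -0.17 and the calls 0 and 0, against 0.0264% lower and 0.0044% higher, with 2 at an unadjusted p under 0.05.

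The pairing of mutant and WT samples changed the calls for polysomal signals. With the replicate number as a block 16 of 43 had an unadjusted p under 0.05, as did 4069 of all 22746 probe sets. 3 transcripts were called lower and 0 higher, when 2.15% of all probe sets were lower and 2.33% higher. The 3 were *psaC* (change -0.75, FDR = 0.0166 with the block and 0.815 without), *psbL* (change -0.48, FDR = 0.0293 and 0.874) and *atpI* (change -0.44, FDR = 0.0263 and 0.474). The PL signal of *atpI* was dim, at 4.56, 4.98, 5.22 and 4.98 in WT and 4.29, 4.53, 4.75 and 4.41 in the mutant. The medians of those arrays were 4.89 to 4.99, which limits what this change can show. The PL signal of *psaC* was 8.34, 8.15, 8.50 and 7.20 in WT and 7.59, 7.91, 7.67 and 6.03 in the mutant, lower in 4 of 4 pairs, with overlap between the groups. The PL change of *psbA* was -0.78 with all replicates and -0.51 without replicate 1 (FDR = 0.336 and 0.625). *petA* was lower in PL in 4 of 4 pairs without overlap, at 9.78, 9.49, 9.86 and 9.46 in WT and 9.44, 9.43, 9.38 and 8.83 in the mutant (change -0.38, FDR = 0.644).

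Non-polysomal signals showed the same tendency without a call. 0 of 43 were lower and 0 higher by limma, against 0.0264% and 0.0484% of all probe sets. 3 of 43 had an unadjusted p under 0.05, as did 1824 of all 22746 probe sets. 40 of 43 had an estimate below 0, with a median of -0.20 against -0.05 over all probe sets. Pairs 1 to 4 had medians of -0.34, -0.32, -0.17 and -0.06, and in pair 2 the median of all probe sets was -0.22. The smallest p values were those of *psbK* (change -0.50, FDR = 0.463), *psbD* (-0.51, FDR = 0.539) and *petL*. The NP signal of *psbD* was dim, at 5.34 to 5.97 in WT and 4.79 to 5.54 in the mutant, near the array medians. With the replicate block 0 were lower and 0 higher, against 0.273% and 0.369%. Then 10 of 43 had an unadjusted p under 0.05, as did 2908 of all 22746 probe sets. The NP signal of *psbK* was 9.86, 9.71, 10.0 and 9.86 in WT and 9.52, 8.98, 9.53 and 9.39 in the mutant, lower in each pair and without overlap. Without replicate 1 the median was -0.14 and the calls 0 and 0, against 0.0176% lower and 0.0044% higher, with 2 at an unadjusted p under 0.05.

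In total RNA the sign of the genotype difference depended on replicate 1. With 3 replicates 41 of 43 transcripts had an estimate above 0, with a median log2 change of 0.43 against -0.03 over all probe sets. 0 were higher and 0 lower by limma, against 2.44% and 1.45% of all probe sets. 2 of 43 had an unadjusted p under 0.05, as did 4766 of all 22746 probe sets. With the replicate block the counts were again 0, 0 and 2, against 2.5%, 1.3% and 4818 probe sets. In pair 1 43 of 43 were higher in the mutant, 36 of them by more than 1 log2 unit, with a median difference of 1.99. In pair 2 36 of 43 were lower, 11 of them by more than 1 log2 unit, with a median of -0.39, and in pair 3 21 were higher and 22 lower, with a median of -0.01. Without replicate 1 35 of 43 had an estimate below 0, the median change was -0.21, and 0 were higher and 0 lower, against 0.435% and 0.127%, with 2 at an unadjusted p under 0.05.

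**Figure D4:**
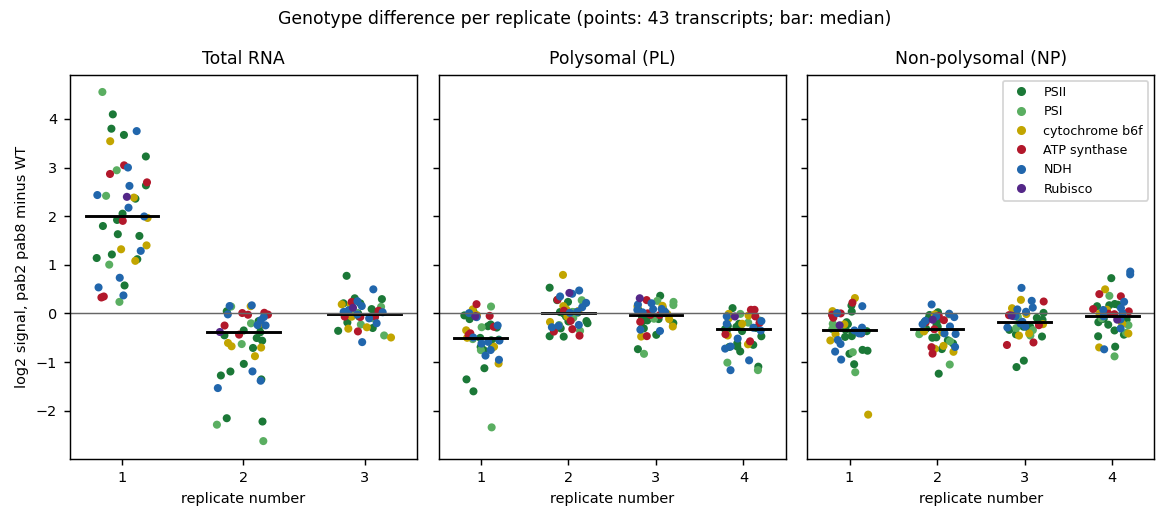
Log2 signal of *pab2 pab8* minus WT (vertical axis) for the 43 transcripts in each replicate pair, in total, polysomal and non-polysomal RNA, with points coloured by complex and a bar for the median. In total RNA all 43 transcripts of pair 1 lie above 0 (median 1.99), those of pair 3 around 0, and in PL and NP most points lie between -1 and 1.

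The difference in pair 1 ran through all complexes. Its median was 1.92 for PSII, 2.42 for PSI, 1.68 for the cytochrome b6f complex, 2.30 for ATP synthase, 2.08 for NDH and 2.40 for *rbcL*. In pair 2 the medians were -0.56, -0.63, -0.64, -0.03, -0.19 and -0.38 in the same order. *psaJ* was at 7.67, 9.37 and 9.97 in WT and 12.22, 8.74 and 9.51 in the mutant, where pair 1 differed by 4.55 log2 units, the most of the set. *rbcL* was at 8.34, 9.82 and 10.03 in WT and 10.73, 9.44 and 10.14 in the mutant (change 0.71, and -0.13 without replicate 1). WT and mutant values overlapped for both.

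The smallest p values in total RNA were those of *ndhI*, *psbZ* and *atpH*. *ndhI*, a peripheral iron-sulfur subunit of NDH, was at 12.58, 12.84 and 13.08 in WT and 13.31, 13.0 and 13.23 in the mutant, higher in 3 of 3 pairs with overlap (change 0.35, standard error 0.14, FDR = 0.197 from limma). Without replicate 1 the change was 0.15 (FDR = 0.648). *psbZ*, a small PSII subunit, changed by 0.46 (FDR = 0.226), and by 0.13 without replicate 1. For *atpH* the values were 1.09 (FDR = 0.272) and 0.11. *psaC* was the transcript with the lowest estimate, -0.87 (FDR = 0.320) and -1.43 without replicate 1 (FDR = 0.222). Its total RNA signal was 8.90, 9.63 and 8.79 in WT and 9.14, 7.0 and 8.56 in the mutant.

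**Figure D5:**
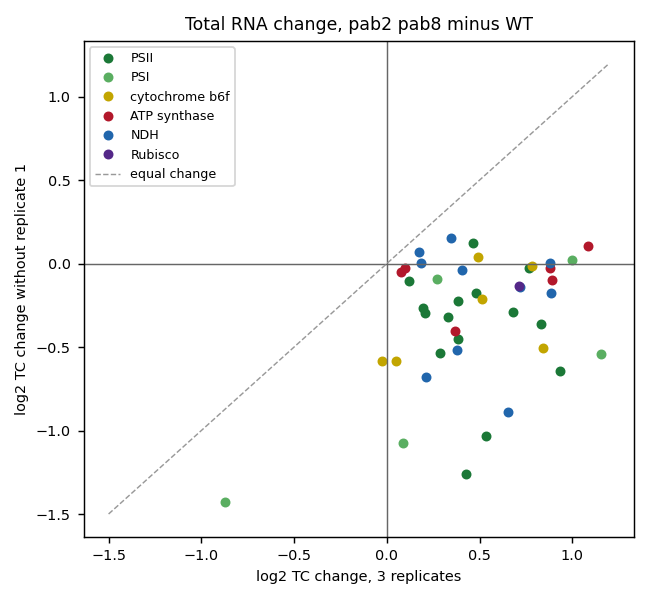
Log2 change in total RNA (*pab2 pab8* minus WT) of the 43 transcripts with 3 replicates (horizontal axis) and without replicate 1 (vertical axis), coloured by complex, with the dashed line marking equal changes. 41 transcripts lie above 0 with all replicates and 8 without replicate 1.

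The same samples were set beside other transcripts. The 26 other plastid-encoded transcripts differed in pair 1 by a median of 2.50, with 26 of 26 higher in the mutant, and in pairs 2 and 3 by 0.18 and 0.23. The 18 mitochondrion-encoded transcripts differed by 0.04, -0.38 and -0.22, and the median of all probe sets by -0.02, -0.04 and -0.03. For the 9 nuclear subunit transcripts the median in total RNA was 12.99, 12.89 and 13.11 in WT and 12.97, 12.99 and 13.02 in the mutant. The polysomal and non-polysomal arrays of replicate 1 did not share the difference, with medians over the 43 transcripts of -0.50 and -0.34. In bulk RNA, less RNA of a kind per cell and fewer cells that hold it cannot be told apart.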

How the data were processed

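The authors read the ATH1 arrays with the affy package in R, applied RMA for normalization, and the log2 signals they deposited were used as given. No source used here gives their versions. MAS5, which the submitters' processing notes also name, served for detection calls that were not used here. A deposited table of translation states repeats the same PL and NP signals and was not used. TL is the difference between the log2 signals of PL and NP. TL against 0, and the mutant minus WT difference in TL, PL, NP and total RNA, were tested with lmFit and eBayes of limma 3.58.1 (R 4.3.3) over 22746 probe sets with Benjamini-Hochberg adjustment. Calls need an FDR below 0.05 with no fold criterion. The fit was tested on simulated data. Python 3.11.15 with pandas 2.3.3, numpy 2.4.6, scipy 1.17.1 and, for the figures, matplotlib 3.10.9 gave counts and medians.

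Of all probe sets 13513 have 1 gene symbol in the array's annotation table, 503 several and 8730 none. The probe sets of *PAB2* and *PAB8* were taken from the study's table, and gene lengths and plastid location from RefSeq (TAIR10.1). The files name no genome build, and no sequences were used here. Operon membership is textbook knowledge. The 43 transcripts, the gene lists and the comparisons were chosen with earlier results of these data known. Genes described in full are, by rule, those with the highest and the lowest WT TL of each complex, *psbA*, *rbcL* and the 3 with the smallest p in each genotype comparison. Further transcripts were named after their values had been seen.

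Per the labels the genotypes were grown together and the replicates on separate occasions, which pairs samples of one number. Across probe sets, such samples deviated from their group means with correlations of 0.797, 0.603, 0.625 and 0.428 in PL, 0.382, 0.305, 0.286 and 0.364 in NP, 0.0660, 0.0931, 0.0525 and 0.135 in TL, and -0.164, -0.0572 and 0.211 in total RNA. The fit without this block is the one given unless stated. Alternatives were an intensity trend in eBayes, median centring, quantile normalization within each kind of array, only the probe sets above the median signal, the replicate block, a genotype by fraction fit and leaving out each replicate in turn. The number of arrays limits the precision.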

Additional observations from a re-analysis of the deposited data

Results flagged for a closer look

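In WT the TL of *petA* was 0.297 in replicate 1 and between -0.842 and -0.694 in the other replicates, so that the gap was 0.870 of the whole range, above Dixon's 95% critical value for 4 samples. This was 1 of 52 groups of 4 values examined, and chance alone flags about 1 in 20. In replicates 1 to 4 its NP signal was 9.49, 10.19, 10.57 and 10.31, lowest in replicate 1, and its PL signal 9.78, 9.49, 9.86 and 9.46.

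For *psbA* the genotype differences ran in opposite directions in PL and NP, with a difference between them of -0.845 (FDR = 0.352 from limma, which did not pass the test). The mutant was lower in PL and higher in NP in 4 of 4 pairs, but in pair 2 the PL signals were 11.153 and 11.152. Its NP signals were near the brightest of those arrays in both genotypes, which limits what NP can show.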

How the results depend on the processing

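Of the counts and medians given for the 43 transcripts, 167 values under alternatives stayed within 1.5 times a count, or within 1 SD between replicates of a median, and 7 moved further. The median WT TL of -1.03 ran from -1.01 to -0.97 when single replicates were left out, more than the spread of the replicate medians. The number of transcripts called with a TL above 0 in the mutant ran, with single replicates left out, from 1 to 5 instead of 4. With an intensity trend 1 transcript, *psbA*, was lower in TL, and with the replicate block 3 were lower in PL. The block changed no other count of calls among the 43 transcripts. Those at an unadjusted p under 0.05 rose from 3 to 6 in TL change, from 4 to 16 in PL and from 3 to 10 in NP. Over all 22746 probe sets such counts rose as well, from 1966 to 2127, from 1728 to 4069 and from 1824 to 2908. The block gave median changes of -0.01 in TL, -0.22 in PL, -0.20 in NP and 0.43 in total RNA, the same as without it. The median change in total RNA ran from -0.21 to 1.07 when single replicates were left out, turning its sign without replicate 1. The WT TL of *psaB*, -0.10 with all replicates and not called, ran from -0.239 to 0.018 when single replicates were left out, above 0 without replicate 4. The alternative with probe sets free of a cross-hybridisation mark held all 43 transcripts and so changed nothing. For probe sets below the array median the signals limit what TL can show.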

Other observations

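The signal of *psaA* differed between kinds of array more than that of any other transcript of the set. It was 5.31, 5.30, 5.12 and 5.38 in NP and 4.80, 5.33, 4.81 and 5.64 in PL of WT, close to the medians of those arrays, but 10.02, 11.71 and 11.62 in total RNA, where the array medians were 6.12 to 6.16. The same held in the mutant, with 4.98, 4.24, 5.19 and 4.98 in NP, 4.94, 4.97, 5.05 and 5.49 in PL and 12.44, 9.42 and 11.76 in total RNA. For *psaB*, transcribed with *psaA*, the WT values were 12.73, 12.64, 13.03 and 13.10 in NP, 12.58, 12.96, 12.90 and 12.65 in PL and 13.08, 13.71 and 13.74 in total RNA. WT total RNA signals minus the mean of NP and PL signals were 5.91 for *psaA* and 0.68 for *psaB*, and ranged down to -1.51 for *psbI*.

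Among the other plastid-encoded transcripts 3 of 26 were higher in total RNA of the mutant at the FDR by limma, against 2.44% of all probe sets. They were *rpl22* (log2 change 2.46, FDR = 0.0143), *rps3* (2.09, FDR = 0.0161) and *rpl16* (1.44, FDR = 0.0323), all ribosomal protein genes, chosen after their values were seen. All 3 were higher in 3 of 3 pairs without overlap. With the replicate block 4 were called higher, against 2.5% of all probe sets. They were these 3 and *rpl36* (1.58, FDR = 0.0459 with the block and 0.108 without). Without replicate 1, 0 of 26 were called, against 0.435% of all probe sets higher and 0.127% lower. Of the 26, 5 had an unadjusted p under 0.05 in that fit, as did 3610 of all 22746 probe sets. The changes were then 1.94 for *rpl22* (FDR = 0.1199), 1.72 for *rps3* (FDR = 0.141) and 0.99 for *rpl16* (FDR = 0.174). The 3 were not called without replicate 2 either (FDR = 0.108, 0.117 and 0.167). They were called without replicate 3 (FDR = 0.00571, 0.00475 and 0.0140). The median change of the 26 was 0.14 without replicate 1 and 0.89 with all replicates.

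Of 8 nuclear genes listed for plastid transcription 1 was named by the array's annotation, *RPOTmp*, which encodes an organellar RNA polymerase. Its total RNA signal was 5.01, 5.35 and 5.37 in WT and 4.65, 4.77 and 4.93 in the mutant, lower in 3 of 3 pairs without overlap (log2 change -0.46, FDR = 0.0733 from limma), and below the median of each total RNA array. With the replicate block it was called lower (FDR = 0.0479 from limma), as were 1.3% of all probe sets. It was not called when replicate 1, 2 or 3 was left out of the fit without the block (FDR = 0.146, 0.297 and 0.196).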
